A study of Homo sapiens with 6 samples.

Results

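The 8 genes GAPDH, ACTB, GUSB, YWHAZ, TBP, PPIA, TFRC and RPLP0 are reference genes, transcripts that quantitative PCR commonly uses as the denominator for the level of another transcript. They were taken by gene symbol from the annotated expression table of RKO cells, in which they made up 8 of 15894 genes and 24 of 37458 probe sets that name 1 gene. A probe set is a group of short probes that measures 1 transcript or a few related ones, and the brightest probe set of each gene over the arrays was read as its main value. A further 6 probe sets for GAPDH and ACTB are controls of the array itself, and they were kept apart. The study measured its own qRT-PCR against GAPDH, and the question here was how steady each candidate denominator was between the study's groups and what each would do to the ratios of BAX and TNFRSF10B.

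RKO is a human colon carcinoma cell line. RKO cells of the shCIRC group carried a short hairpin RNA against the circular RNA hsa_circ_0064559, a closed loop of RNA without free ends. RKO cells of the shEV group carried the control vector with a nonsense hairpin, and both groups were grown in the same medium and transfected with the same lipid reagent. Each group had 3 arrays, so the comparison rested on 1 hairpin against 1 control, and the methods set only a minimum transfection efficiency for the stable cells, so that some cells may have lacked a hairpin. The labels do not tell if the 3 arrays of a group stand for separate cultures, so the p-values cover the spread among these arrays alone, and that spread may be technical. The hairpin sequences are shown because they are the designed difference between the groups.
shCIRC: tttattatagcctgccacagc
shEV: ttctccgaacgtgtcacgt

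A reference gene is expected to be present in every cell and to keep the same level under the treatment. The ratio of a target to its reference then cancels differences in the amount of RNA, and any change in the reference passes into every ratio with the opposite sign. The 8 genes belong to unrelated processes, among them glycolysis, the cytoskeleton, protein synthesis, protein folding, signalling, transcription, iron uptake and lysosomal breakdown.

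The arrays were 1-colour Affymetrix PrimeView arrays, hybridized with RNA copied from 6 µg of total RNA per sample, and the deposited values were log2 signals after quantile normalization. Array medians lay between 6.82 and 6.85. The arrays correlated with r from 0.9981 to 0.9987 within groups and from 0.9872 to 0.9879 between groups. With limma and Benjamini-Hochberg adjustment over all genes, 47.5% of the 15894 genes passed an adjusted p of 0.05, with 3618 higher and 3928 lower in the shCIRC group. When the quantile-normalized arrays were further centred on their medians, the split was 5059 higher and 3000 lower. The calls were not recomputed without the deposited quantile normalization. Of 8 colon epithelial markers 6 were in the table and 3 of them (KRT18, EPCAM and CDX2) lay above the median signal of all genes, and of 8 markers of leukocytes, fibroblasts and endothelium 5 were in the table and 0 lay above it. The colon markers KRT8, KRT19 and LGALS4 did not lie above it. Since as many genes lie above a median as below it, these counts do not identify the cell line.

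Of the 8 reference genes, 1 was upregulated in the shCIRC group (TFRC), 4 were downregulated (GUSB, YWHAZ, GAPDH and TBP) and 3 did not pass the test (RPLP0, ACTB and PPIA), where 22.8% of all genes were called higher and 24.7% lower. The sizes of the log2 differences ran from 0.02 for RPLP0 to 0.47 for GUSB, while the median size over all genes was 0.13 and the 90th percentile was 0.50. In all 8 genes the 3 shCIRC arrays did not overlap the 3 shEV arrays, which held for 56.0% of all genes, and the exact permutation test, two-sided, gave p = 0.1 for each, the smallest value that 3 arrays against 3 allow. With 3 arrays a group, their number sets how precise each value can be.

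**Figure D1:**
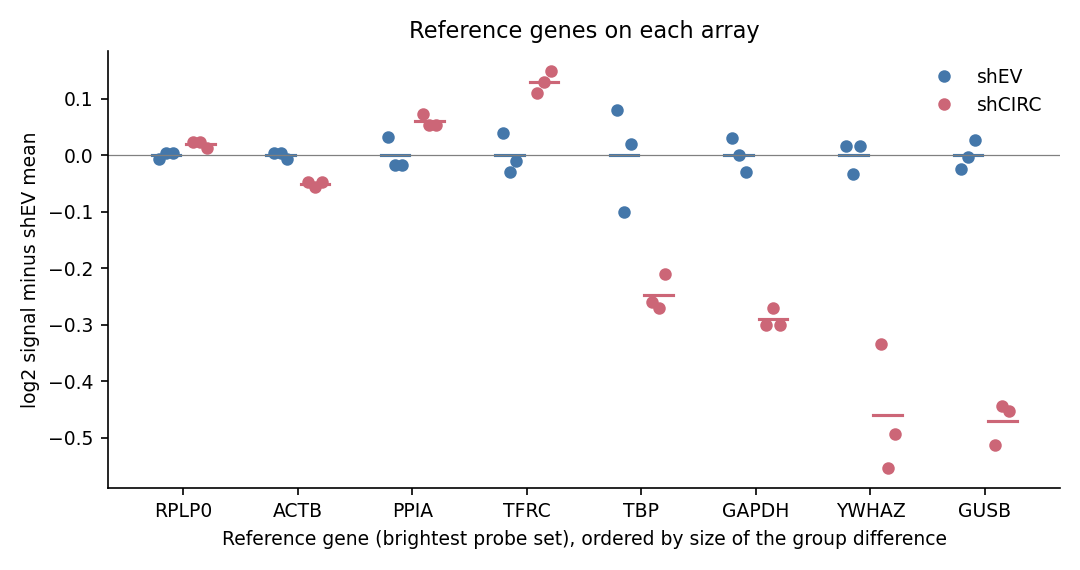
Log2 signal of the 8 reference genes on the 6 arrays, each as its difference from the gene's shEV mean, with points for arrays and bars for group means. The shCIRC arrays of GUSB, YWHAZ, GAPDH and TBP lie below those of shEV, and those of RPLP0, ACTB and PPIA lie within 0.1 of the shEV mean.

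RPLP0, a protein of the stalk of the large ribosomal subunit, had the smallest difference. Its log2 signals were 14.92, 14.93 and 14.93 in shEV and 14.95, 14.95 and 14.94 in shCIRC. The shCIRC arrays were all slightly higher, by 0.02 ± 0.03 (SE), with a 95% interval from -0.05 to 0.08 and a limma adjusted p of 0.65. With cyclic loess between the arrays the direction turned, to -0.029. A smaller change was found in 8.3% of all genes. The annotation places its single probe set on chromosome 15, positions 40604469 to 40604942, minus strand, in a build not given in the sources used here, whereas RefSeq has RPLP0 on chromosome 12, and the probe set carries the ending that Affymetrix gives to sets that may also bind other transcripts.

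ACTB encodes the cytoplasmic beta actin of the cytoskeleton. On the arrays it read 14.13, 14.13 and 14.12 in shEV and 14.08, 14.07 and 14.08 in shCIRC. The shCIRC arrays were lower and close together, with a difference of -0.05 ± 0.03 (95% interval -0.11 to 0.02, limma adjusted p = 0.2). With arrays centred on their medians the direction turned, to 0.023. The SD within a group was 0.005 in shEV and 0.006 in shCIRC, far under the standard error that limma gives, since limma draws each gene's spread toward that of all genes. With the methods' t-test on the same values, which uses only the gene's own spread, ACTB and RPLP0 passed the threshold, and limma with a trend over brightness called ACTB lower and PPIA higher.

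PPIA, cyclophilin A, is a prolyl isomerase that assists protein folding. Its brightest probe set read 14.46, 14.41 and 14.41 in shEV and 14.50, 14.48 and 14.48 in shCIRC. The shCIRC arrays were higher by 0.06 ± 0.03 (95% interval -0.01 to 0.13, limma adjusted p = 0.15), but the direction depended on the probe set, as given further on.

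TFRC, the transferrin receptor that brings iron into the cell, was the 1 reference gene called higher. Its log2 signals were 11.98, 11.91 and 11.93 in shEV and 12.05, 12.07 and 12.09 in shCIRC. All shCIRC arrays lay above all shEV arrays, with a difference of 0.13 ± 0.03, a fold of 1.10 and a limma adjusted p of 0.013. This change was close to the middle of all genes, 49.4% of which changed less. Its call was lost at an adjusted p threshold of 0.01.

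TBP, the TATA-binding protein of the general transcription machinery, was downregulated to a fold of 0.845. The log2 signals of TBP were 8.64, 8.46 and 8.58 in shEV and 8.30, 8.29 and 8.35 in shCIRC. The second shEV array lay nearest to the shCIRC arrays, and the SD of shEV was 0.089. The difference was -0.24 ± 0.05 (95% interval -0.36 to -0.12, limma adjusted p = 0.0066).

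GAPDH, the glycolytic enzyme that served as the study's internal control, was downregulated in the shCIRC group. Its log2 signals were 14.58, 14.55 and 14.52 in shEV and 14.25, 14.28 and 14.25 in shCIRC. The lowest shEV array stood well above the highest shCIRC array. The difference was -0.29 ± 0.03 (95% interval -0.37 to -0.22, limma adjusted p = 2.7e-04), a fold of 0.817, and 75.7% of all genes changed less.

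YWHAZ encodes the zeta form of the 14-3-3 proteins, which bind phosphorylated partners in signalling. The main probe set read 13.14, 13.09 and 13.14 in shEV and 12.79, 12.57 and 12.63 in shCIRC. The shCIRC arrays were lower and also more scattered, with an SD of 0.113 against 0.029 in shEV. The difference was -0.46 ± 0.06 (95% interval -0.60 to -0.31, limma adjusted p = 7.2e-04).

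GUSB, the lysosomal enzyme beta-glucuronidase, had the largest difference of the 8 genes. Its log2 signals were 10.90, 10.92 and 10.95 in shEV and 10.41, 10.48 and 10.47 in shCIRC. Every shCIRC array lay far below every shEV array. The difference was -0.47 ± 0.03 (95% interval -0.55 to -0.39, limma adjusted p = 5.0e-05), a fold of 0.722, and 88.4% of all genes changed less.

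Ranked by the size of the difference between the groups, from the steadiest, the order was RPLP0, ACTB, PPIA, TFRC, TBP, GAPDH, YWHAZ and GUSB. The 95% intervals of the sizes overlapped for all neighbours in this order. Such overlap does not test whether neighbours differ, and the order of neighbouring places was not tested. The SD over the 6 arrays gave the same first 6 places, from 0.011 for RPLP0 to 0.161 for GAPDH, and it placed YWHAZ (0.260) and GUSB (0.259) last. The SD within groups ranked the genes differently. GAPDH came 4th by it with 0.024, and TBP with 0.067 and YWHAZ with 0.083 came last, so that GAPDH was steady among replicates but not between the groups. Of 24 recomputed stability ranks, 15 moved and 9 stayed the same. By the size of the difference, RPLP0 did not keep first place under every other scaling. It kept first place when quantile normalization was applied again, and lost it with median centring and with cyclic loess. ACTB (0.023) differed less than RPLP0 (0.088) with arrays centred on their medians, and PPIA (0.015) less than RPLP0 (-0.029) with cyclic loess.

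A further measure, geNorm M, is the mean SD of a gene's log2 ratios with the other 7 reference genes, and it is lowest for genes that move with the rest of the panel. ACTB ranked first with 0.133, followed by RPLP0 (0.144), TBP (0.145) and GAPDH (0.147). PPIA came 5th with 0.156, TFRC 6th with 0.188, GUSB 7th with 0.210 and YWHAZ 8th with 0.213. TBP and GAPDH gained places in this ranking, in which 4 of the 8 panel members were themselves called lower.

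The 28 pairs of reference genes gave log2 ratios whose group means differed by 0.02 to 0.60, with a median of 0.25. In 24 pairs the groups did not overlap. GAPDH over ACTB was 0.45, 0.42 and 0.40 in shEV and 0.16, 0.21 and 0.17 in shCIRC. All shCIRC ratios were lower, with a difference of -0.24 (exact permutation test, two-sided, p = 0.1). The groups overlapped for GAPDH with TBP (difference -0.05, exact p = 0.6), GAPDH with YWHAZ (0.16, exact p = 0.2), GUSB with YWHAZ (-0.02, exact p = 1) and PPIA with RPLP0 (0.04, exact p = 0.3). The largest pair difference was that of GUSB with TFRC, in which GUSB over TFRC was -1.08, -1.00 and -0.97 in shEV and -1.64, -1.59 and -1.62 in shCIRC.

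The other probe sets of the same genes did not all move with the brightest one. Of the 24 probe sets, 3 were called higher, 12 lower and 9 not called, where 50.3% of all probe sets were called, 25.6% higher and 24.6% lower. All 3 TFRC probe sets were higher by 0.12 to 0.13, and the 3 ACTB probe sets had differences from -0.10 to -0.05, with 0 called. GAPDH, GUSB and RPLP0 had 1 probe set each.

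PPIA had 6 probe sets with opposite directions. The brightest pair differed by 0.06 and 0.08 and was not called. The other 4 were called lower, and the third in brightness read 10.68, 10.68 and 10.77 in shEV and 10.23, 10.21 and 10.26 in shCIRC. Its shCIRC arrays lay far below those of shEV, with a difference of -0.48 ± 0.04 (limma adjusted p over all probe sets 7.5e-05), and the last 3 had differences of -0.31, -0.24 and -0.29. As the mean of its probe sets, PPIA was called lower, with a difference of -0.196, so its place among the steady genes held for its brightest probe sets only.

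YWHAZ also had 6 probe sets, of which the 4 brightest were called lower by -0.67 to -0.46, and the 2 dimmest were not called, with differences of 0.03 and 0.08. TBP had 3, of which the brighter pair was called lower (-0.24 and -0.36) and the dimmest, with a mean log2 signal of 4.77, read 0.13 ± 0.09 and was not called. Of the main probe sets of the 8 genes, 5 carried the ending x_at, given to sets that may bind other transcripts, and of all 24 it was 14. The ending s_at was not counted here. It was carried by 2 main sets, those of GUSB and TFRC, and by 4 of all 24, so these are not shown to be free of such binding. The annotation aligned 4 of the 24 off the chromosome of their gene. These were the main set of YWHAZ, placed on chromosome 2, a second YWHAZ set with 4 places, the second PPIA set, placed on chromosomes 6 and 7, and the single RPLP0 set. What such binding contributed to the signals was not tested.

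**Figure D2:**
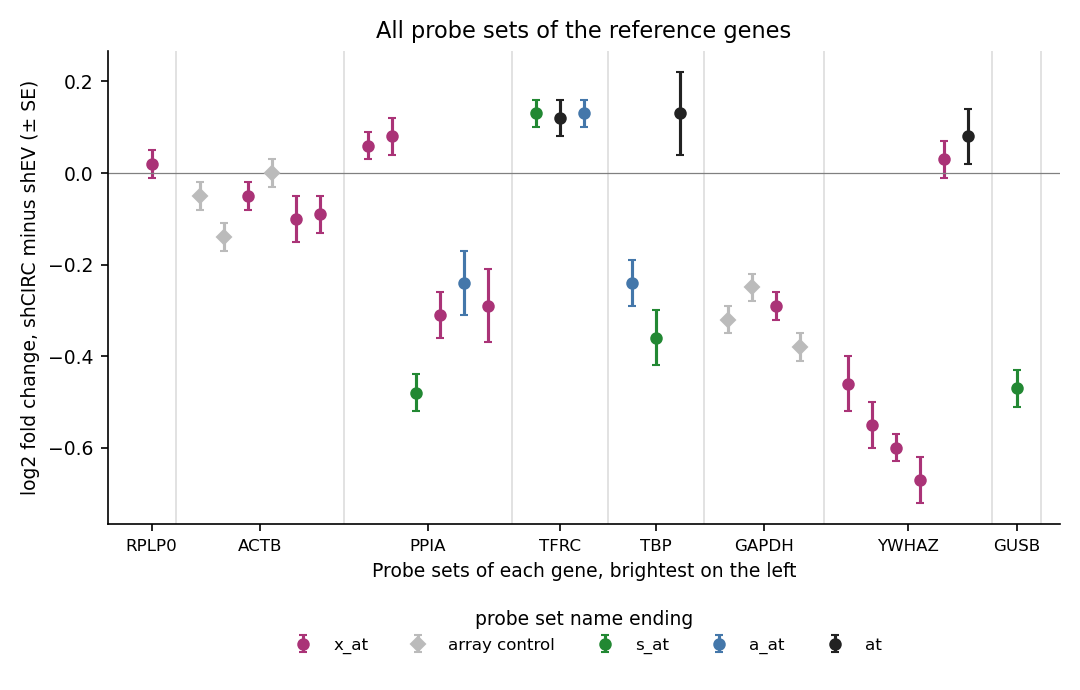
Log2 fold change of shCIRC minus shEV with its standard error for each probe set of the reference genes, brightest on the left, coloured by the ending of the probe set name, with array controls as grey diamonds. PPIA, YWHAZ and TBP have probe sets on both sides of 0, and the 3 of TFRC lie between 0.12 and 0.13.

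The array controls for GAPDH and ACTB read the 5′ end, the middle and the 3′ end of the transcript. For GAPDH all 3 were lower in shCIRC, by -0.25 at the 5′ end, -0.32 in the middle and -0.38 at the 3′ end (limma adjusted p = 4.6e-04, 1.9e-04 and 7.1e-05). For ACTB they differed by 0.00, -0.05 and -0.14, and the 3′ set was called lower (limma adjusted p = 0.0071). The 3′ minus 5′ log2 difference, a measure of RNA quality and of labelling, moved with the groups. For GAPDH it was -0.16 ± 0.02 in shEV and -0.30 ± 0.02 in shCIRC (SD, n = 3), and for ACTB 0.13 ± 0.02 and -0.01 ± 0.03, without overlap (exact permutation test, two-sided, p = 0.1 for each). GAPDH was lower at both ends of the transcript, and the part of this shift in the other results was not tested.

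Bright probe sets changed less than others on these arrays. The median size of the log2 difference was 0.03 over the 175 probe sets with a mean log2 signal above 14, 0.08 over the 506 above 13, 0.22 over the 16837 from 8 to 13, and 0.15 over all 37458. The main probe sets of GAPDH, ACTB, PPIA and RPLP0 lay above 14. Among the 175, the change of GAPDH was exceeded by that of 2, that of PPIA by 47, that of ACTB by 61 and that of RPLP0 by 123. The small differences of ACTB, PPIA and RPLP0 were therefore found in a range of brightness where small differences were usual, and GAPDH was near the extreme of its range. The part of brightness in these differences was not tested.

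**Figure D3:**
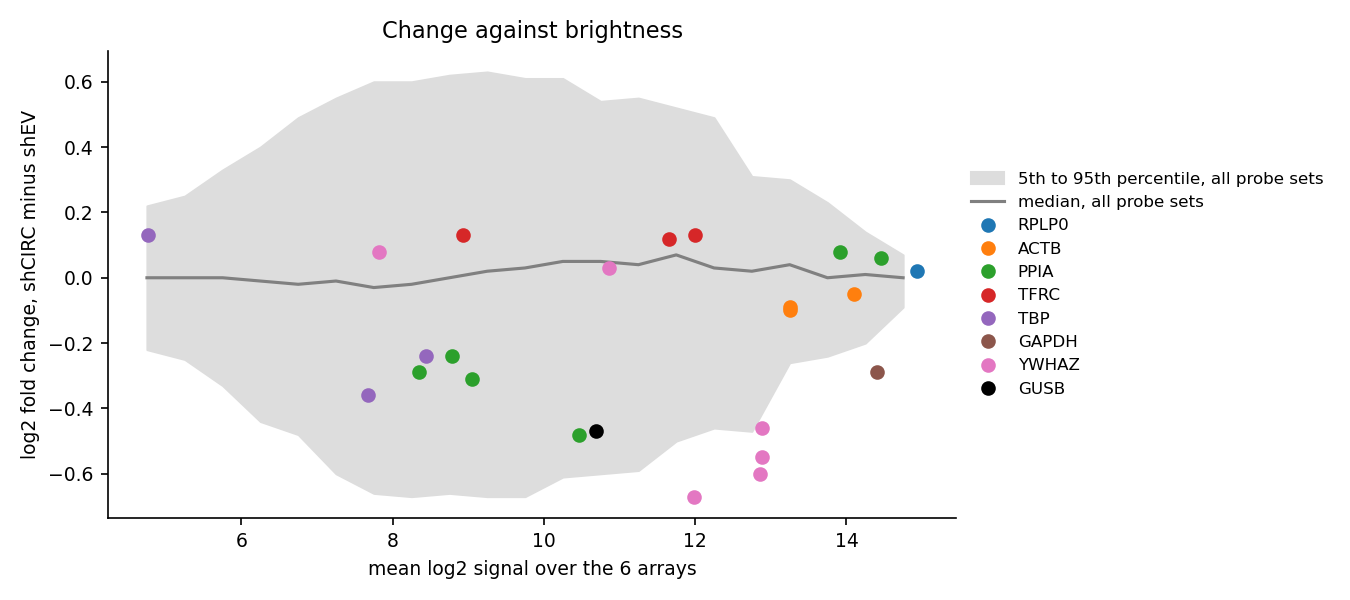
Log2 fold change of shCIRC minus shEV against the mean log2 signal for all probe sets of the reference genes (points), over the median and the range from the 5th to the 95th percentile of all probe sets in bins of brightness. The band narrows above 13, and GAPDH and 3 YWHAZ probe sets lie below the 5th percentile of their bin, with the main YWHAZ set at its edge.

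As a denominator each reference gene shifted every other gene by the same amount, so its own difference became that of the ratios with the sign turned. BAX, which promotes the release of apoptotic factors from mitochondria, had deposited log2 signals of 11.13, 11.11 and 11.05 in shEV and 11.68, 11.73 and 11.72 in shCIRC. All shCIRC arrays were higher, by 0.62 (95% interval 0.53 to 0.70), a fold of 1.53. Relative to GAPDH the log2 ratios were -3.45, -3.44 and -3.47 in shEV and -2.57, -2.54 and -2.54 in shCIRC. The groups lay further apart than on the deposited scale, by 0.91 (95% interval from the spread of the ratios 0.88 to 0.94), a fold of 1.88.

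Relative to TFRC, the denominator with the smallest result, BAX was -0.85, -0.80 and -0.88 in shEV and -0.37, -0.33 and -0.37 in shCIRC. The difference was 0.48 (0.42 to 0.55), a fold of 1.40. Relative to GUSB, the denominator with the largest, it was 0.23, 0.19 and 0.10 in shEV and 1.27, 1.25 and 1.25 in shCIRC. This difference was 1.09 (0.97 to 1.20), a fold of 2.12. The choice of the reference gene thus moved the log2 difference of BAX over a range of 0.60, which is about the size of its difference on the deposited scale.

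The remaining denominators lay in between. Relative to PPIA, RPLP0 and ACTB the BAX difference was 0.55 (0.48 to 0.63), 0.60 (0.51 to 0.68) and 0.66 (0.58 to 0.74), close to the deposited value. Relative to TBP it was 0.86 (0.69 to 1.03) and relative to YWHAZ 1.07 (0.83 to 1.31), the widest intervals of the set. With the mean log2 signal of GAPDH and ACTB it was 0.78 (0.73 to 0.84), and with the mean of all 8 genes also 0.78 (0.69 to 0.86). In each case the shCIRC ratios did not overlap those of shEV (exact permutation test, two-sided, p = 0.1). BAX was called higher with 8 of 8 denominators by limma and also by the methods' t-test, which uses each ratio's own spread. The limma adjusted p ran from 1.1e-06 with GAPDH to 3.0e-05 with TFRC. It is not given for YWHAZ and TBP, whose scatter enters all ratios of an array together.

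TNFRSF10B encodes the death receptor for the ligand TRAIL. Its deposited log2 signals were 12.04, 12.03 and 12.00 in shEV and 12.43, 12.42 and 12.43 in shCIRC, a difference of 0.40 (95% interval 0.34 to 0.47) and a fold of 1.32. Relative to GAPDH the log2 ratios were -2.54, -2.53 and -2.52 in shEV and -1.82, -1.85 and -1.82 in shCIRC. The shCIRC ratios were all higher, by 0.70 (0.66 to 0.73), a fold of 1.62.

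Relative to TFRC the TNFRSF10B ratios were 0.06, 0.12 and 0.08 in shEV and 0.38, 0.36 and 0.34 in shCIRC, which is a difference of 0.27 (0.22 to 0.33) and a fold of 1.21. With GUSB it was 0.87 (0.78 to 0.97), a fold of 1.83. The difference was 0.34 (0.30 to 0.38) with PPIA, 0.39 (0.35 to 0.42) with RPLP0, 0.45 (0.43 to 0.48) with ACTB, 0.65 (0.49 to 0.80) with TBP and 0.86 (0.67 to 1.05) with YWHAZ. The range over the 8 genes was 0.60, the same as for BAX because each denominator shifts all genes alike. TNFRSF10B was called higher with 8 of 8 by limma and by the methods' t-test. The limma adjusted p ran from 2.0e-06 for GUSB to 5.7e-04 for TFRC, leaving out YWHAZ and TBP. Where the dimmest TBP probe set was the denominator, the difference was 0.275 and not called (limma adjusted p = 0.11).

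**Figure D4:**
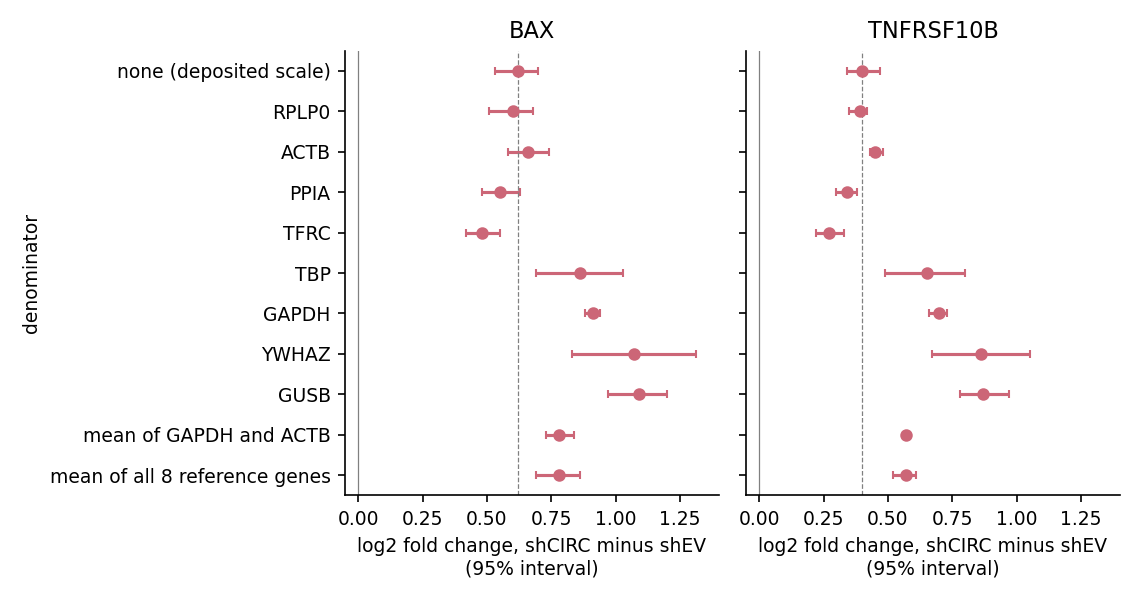
Log2 fold change of BAX (left) and TNFRSF10B (right), shCIRC minus shEV, on the deposited scale and relative to each reference gene or mean of reference genes, with 95% intervals from limma for the deposited scale and from the spread of the ratios for the others. The dashed line is the deposited value. For both targets the intervals of TFRC lie below it and those of GAPDH, GUSB, TBP, YWHAZ and the means above it. For TNFRSF10B alone, the interval of PPIA also lies below it and that of ACTB above it.

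The second BAX probe set was dimmer and had a smaller difference, 0.19 ± 0.05 on the deposited scale (limma adjusted p over all probe sets 0.017). With it as the target, BAX was not called relative to PPIA (0.132, limma adjusted p = 0.11) or TFRC (0.062, limma adjusted p = 0.38). The other TNFRSF10B probe sets differed by 0.82 and 0.72, more than the brightest. With the mean of all probe sets per gene, TNFRSF10B differed by 0.846 relative to PPIA, 0.728 to ACTB, 0.632 to RPLP0 and 0.523 to TFRC, and BAX by 0.562 relative to TBP, 0.387 to RPLP0 and 0.278 to TFRC, all called by limma. With the 4 PPIA probe sets that were called lower as the denominator, BAX differed by 0.860 to 1.091 and TNFRSF10B by 0.648 to 0.880, and with the 2 dimmest YWHAZ probe sets by 0.538 and 0.590 and by 0.326 and 0.379.

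The other genes of the study's qRT-PCR that were analysed here shifted by the same amounts. TGFBR2, a receptor for transforming growth factor beta, differed by 0.56 relative to TFRC and by 1.16 relative to GUSB, and SQSTM1, the autophagy receptor p62, by 0.41 and 1.01. ATF2, a transcription factor, ran from 0.20 with TFRC to 0.80 with GUSB. SLC4A7, a sodium bicarbonate cotransporter, ran from -1.14 with TFRC to -0.54 with GUSB. It was called lower with 8 of 8 denominators by limma and by the methods' t-test.

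CD274, the immune checkpoint ligand PD-L1, was the 1 of the 7 targets that lost its limma call with a reference gene, while ATF2 relative to TFRC missed the threshold with the methods' t-test. CD274 differed by -0.63 on the deposited scale (95% interval -0.71 to -0.54), by -0.33 relative to GAPDH (-0.37 to -0.30) and by -0.76 relative to TFRC (-0.84 to -0.68). Relative to GUSB it was lower by -0.16 (-0.27 to -0.04). Relative to YWHAZ the difference was -0.17 (-0.41 to 0.07), and the groups overlapped (exact permutation test, two-sided, p = 0.2). Neither limma (adjusted p = 0.08) nor the methods' t-test (adjusted p = 0.13) called it. These ratios rest on the brightest probe set of each target. On the deposited scale the 4 probe sets of CD274 ran from -0.63 to -0.15 and the 4 of ATF2 from 0.33 to 0.93. Ratios of their other probe sets were not computed.

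The same shift was seen in the calls over all genes. Relative to GAPDH, 11826 of 15893 genes were called higher (74.4%) and 1284 lower (8.08%). Relative to GUSB 89.0% were called higher and 4.08% lower, and relative to YWHAZ 85.2% and 3.22%. Relative to TFRC the balance turned, with 12.2% called higher and 44.5% lower. RPLP0, with 21.0% and 26.7%, was nearest to the deposited split, followed by ACTB with 28.1% and 20.3%, whereas PPIA gave 16.5% and 30.8% and TBP 62.5% and 7.90%. The mean of all 8 genes gave 50.4% and 13.4%, and the mean of GAPDH and ACTB 53.0% and 13.0%. Since all genes of an array share the noise of the denominator, these counts hold for the 6 arrays and are not independent evidence on each gene. For TBP the methods' t-test called 6437 genes higher where limma called 9940.

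Some genes were called in opposite directions with and without a denominator. Since a denominator shifts all genes alike, their number depends on its own difference and on its scatter, and is no separate observation. It did not follow the difference alone, as the count for TBP shows. Relative to GUSB 2243 genes (14.1%) were called higher or lower against their call on the deposited scale, relative to YWHAZ 1593 (10.0%) and relative to GAPDH 697 (4.39%). The count was 0 for ACTB, TBP, PPIA, TFRC and RPLP0 and 3 for the mean of GAPDH and ACTB.

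**Figure D5:**
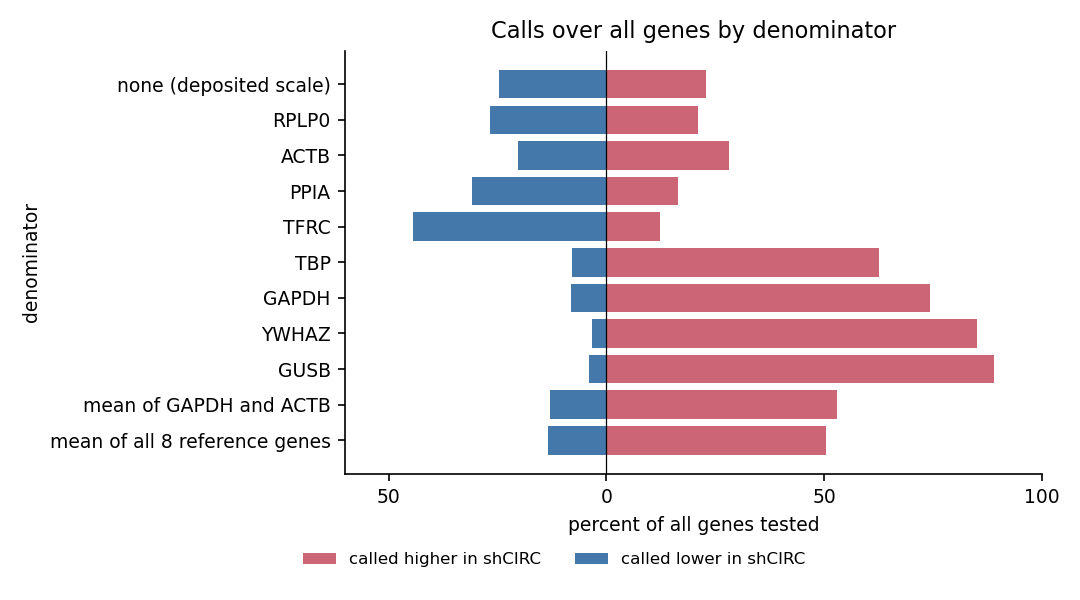
Percent of all genes called higher (to the right) or lower (to the left) in shCIRC by limma on the deposited scale and relative to each denominator. The bars for GUSB, YWHAZ and GAPDH extend furthest to the right, and that for TFRC furthest to the left.

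The promoters of the reference genes are shown because TBP, itself a member, binds the TATA box. RefSeq sequences (GRCh38.p14) of the 100 bases before the start of the gene were matched for 6 of the 8 genes and are shown for 5, with the letters TATAAA in capitals. That of GAPDH was not used, because its listed start may be an upstream one. RPLP0 lies on chromosome 12 (120201112 to 120201211, minus strand), PPIA on chromosome 7 (44796581 to 44796680, plus strand), TFRC on chromosome 3 (196082091 to 196082190, minus strand), GUSB on chromosome 7 (65982214 to 65982313, minus strand) and TBP on chromosome 6 (170554269 to 170554368, plus strand).
RPLP0: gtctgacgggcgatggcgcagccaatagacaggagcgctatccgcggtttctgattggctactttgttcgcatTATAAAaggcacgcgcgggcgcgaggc
PPIA: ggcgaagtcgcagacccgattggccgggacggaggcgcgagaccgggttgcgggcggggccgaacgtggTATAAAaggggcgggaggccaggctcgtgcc
TFRC: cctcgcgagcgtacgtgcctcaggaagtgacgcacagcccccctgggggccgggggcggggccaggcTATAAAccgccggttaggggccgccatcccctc
GUSB: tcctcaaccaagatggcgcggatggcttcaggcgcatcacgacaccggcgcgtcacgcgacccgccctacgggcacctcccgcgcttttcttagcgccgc
TBP: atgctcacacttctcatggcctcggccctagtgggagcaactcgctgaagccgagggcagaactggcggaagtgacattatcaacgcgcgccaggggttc

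TATAAA stood 27 bases before the start in RPLP0, 31 in PPIA and 33 in TFRC, and was not in the windows of GUSB and TBP. Searched on both strands, it was in 4.99% of 35116 promoter windows of this length. Of the 5 windows, CCAAT was in those of RPLP0 and PPIA and in 18.1% of all, and GGGCGG was in those of PPIA, TFRC and GUSB and in 31.3% of all. A match is a description of these letters and not of binding.

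Other genes that are often used as references were read from the same fit, and their log2 differences ran from -1.14 to 0.54. Of 38 measured, 15 were upregulated, 10 were downregulated and 13 were not called, where 22.8% of all genes were called higher and 24.7% lower, with a median log2 difference of 0.03 against 0.00 over all genes. ABL1, a tyrosine kinase, fell by 1.14 on the log2 scale. RAB7A, a GTPase of late endosomes, rose by 0.47 and ELF1, a transcription factor, by 0.54. The smallest differences were those of the ribosomal proteins RPL13A (0.00) and RPL30 (0.00), of REEP5 (-0.01) and of the elongation factor EEF1A1 (0.02), each ± 0.03. These are the values of the brightest probe set, and other probe sets read down to -0.09 for RPL13A, -0.36 for REEP5 and -0.27 for EEF1A1.

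The genes that work with each reference gene are counted below against shares of 22.8% called higher and 24.7% called lower over all genes. Of 73 cytosolic ribosomal proteins, the partners of RPLP0, 66 were not called, 2 were upregulated and 5 downregulated, with a median of 0.00. RPL36 fell by 0.17 and RPS24 by 0.15. RPL35A rose by 0.12, and RPL27A rose by 0.60 at a mean log2 signal of 5.22 in shEV, which is below the array medians. Other probe sets of RPS24 read up to 0.19 and of RPL35A down to -0.17.

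Of 16 genes of glycolysis, the pathway of GAPDH, 3 were upregulated, 7 downregulated and 6 not called, with a median of -0.09. Hexokinase HK2, which starts the pathway, fell by 0.65 and phosphofructokinase PFKL by 0.38. Pyruvate kinase PKM rose by 0.19 and the enolase ENO2 by 0.57, so that the fall of GAPDH was not shared by all steps.

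Of 24 genes of actin and its regulators 8 were upregulated, 9 downregulated and 7 not called (over all genes 22.8% and 24.7%), with a median of 0.01. ACTA2, the smooth muscle actin, rose by 1.28 and the actin-severing gelsolin GSN by 0.41, while ARPC5, a subunit of the ARP2/3 complex that branches filaments, fell by 1.25 and TMSB10, which binds actin monomers, by 0.63. The list held large changes in both directions, beside the difference of -0.05 of ACTB.

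The 6 other genes of the 14-3-3 family had 2 upregulated, 2 downregulated and 2 not called. YWHAB rose by 0.28 and YWHAG by 0.20, and YWHAH fell by 0.79 and SFN by 0.48. Of 13 cyclophilins other than PPIA, 3 were upregulated, 6 downregulated and 4 not called (median -0.07), with PPIL4 at 0.48, PPIC at 0.27, PPIL2 at -0.25 and NKTR at -0.28, although other probe sets of PPIL2 read up to 0.21 and of PPIC down to -0.09. Of 17 genes of TFIID and related factors, the complex that TBP nucleates, 6 were upregulated, 2 downregulated and 9 not called (median 0.02). GTF2B, which joins TBP on the promoter, rose by 0.61 and the TBP relative TBPL1 by 0.35, while TAF5 fell by 0.64 and TAF6 by 0.15.

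Of 14 genes of iron uptake and storage, 5 were upregulated, 6 downregulated and 3 not called (median -0.01). The iron regulatory proteins ACO1 and IREB2, which bind and stabilize the TFRC transcript when iron is low, rose by 0.38 and 0.21. The ferrireductase STEAP3 fell by 1.09 and the second transferrin receptor TFR2 by 0.34. Of 28 lysosomal hydrolases other than GUSB, 8 were upregulated, 8 downregulated and 12 not called (median -0.02), next to 22.8% and 24.7% over all genes. The peptidase TPP1 fell by 0.92 and the glucosidase GAA by 0.48, and the sulfatases GALNS and IDS rose by 0.62 and 0.58, although other probe sets of TPP1 and GAA read up to 0.07 and 0.01.

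By Pearson correlation over the 6 arrays among 9230 genes with an SD of at least 0.1, the genes most like GAPDH were NCAPG (r = 0.9995), TPR (0.9992) and MREG (0.9990), and those most like GUSB included PSMD5 (0.9998) and DPM3 (0.9997). With 2 groups far apart, such values describe mainly the shared difference between the groups, and all arrays share the same normalization.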

How the data were processed

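Gene expression was measured in RKO cells on 6 PrimeView arrays, 3 of the shEV group and 3 of the shCIRC group, grouped by their labels. The authors deposited log2 signals after quantile normalization in R, and the submitters' processing notes name GCOS 1.4. The deposited annotated table also held the authors' p-value, FDR, log2 fold change, linear fold as a ratio and signed fold change as a score, none of which was used. There were 49395 probe sets among the values and 39269 with annotation, and 0 cells differed between them. Of these, 73 array controls, 1539 probe sets with several genes and 199 with none were left out. Symbols were updated through RefSeq (37380 of 37458 probe sets matched), and the brightest probe set per gene was kept.

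The groups were compared by limma (lmFit, eBayes; version 3.58.1, R 4.3.3). P-values were adjusted by Benjamini-Hochberg across the genes tested, with 0.05 as the threshold. For ratios, the reference gene's log2 signal was subtracted from every gene of the same array before the fit. Since that adds 1 shared noise term to all genes of an array, limma's p-values for ratios treat as independent what is shared, and 95% intervals were taken from each ratio's own spread (4 residual degrees of freedom). Both fits were tested on simulated data, that for ratios with RPLP0 alone as the reference. The shared noise of a reference such as YWHAZ or TBP was thus not covered. The members and lists were chosen with earlier results of these data known. Named were the 8 reference genes, the qRT-PCR targets, at most the 2 highest and 2 lowest changes past the threshold of each list, the 4 smallest changes among other reference genes, and the 3 genes most like GAPDH and the member with the largest change. Other scalings, probe sets, tests, thresholds and left-out arrays were tried. Some genes that this rule selects are not reported here.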

Additional observations from a re-analysis of the deposited data

How the results depend on the processing

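Over 946 recomputed values, 898 kept their direction and their side of the threshold or stayed near their main value. Part of this agreement was fixed in advance. Centring the arrays cannot change a ratio within an array, and allowing array controls replaced the values of GAPDH and ACTB only. The number of reference genes called higher was 3 with arrays centred on their median, which added PPIA (0.131) and RPLP0 (0.088), 2 with limma with trend and robust, 2 with the methods' t-test and 0 at an adjusted p threshold of 0.01, where TFRC (limma adjusted p = 0.013) was lost. RPLP0 turned to -0.029 with cyclic loess and ACTB to 0.023 with centred arrays, neither called. ACTB was called lower with cyclic loess (-0.093), with trend and robust and with the methods' t-test. PPIA reversed as the mean of its probe sets (-0.196) and with 4 single probe sets (-0.476, -0.310, -0.245 and -0.291), as did YWHAZ with its 2 dimmest (0.025 and 0.078) and TBP with its dimmest (0.129). Relative to the mean of the PPIA probe sets, with all genes averaged likewise, 9959 genes were called higher and 1697 lower. The methods' t-test called 6437 genes higher relative to TBP. Among genes above the median brightness, so with fewer genes tested, 5879 were higher relative to GAPDH, 6835 to GUSB, 6447 to YWHAZ, 5158 to TBP, 4895 to the mean of all 8 genes and 4975 to the mean of GAPDH and ACTB, and 4510 were lower relative to TFRC. TNFRSF10B relative to the dimmest TBP probe set (0.275) and the second BAX probe set, tried after the data had been seen, relative to PPIA (0.132) and TFRC (0.062) were no longer called. Also added then was the use of array controls as the brightest probe set of GAPDH, with a difference of -0.320. Apart from these statements, the cause of each change was not tested.

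Leaving out each array in turn changed 0 calls of the reference genes or of the BAX and TNFRSF10B ratios. The GAPDH difference then ran from -0.307 to -0.278, that of GUSB from -0.483 to -0.45, that of YWHAZ from -0.518 to -0.409, and BAX relative to GAPDH from 0.9 to 0.916. Samples with the same replicate number had deviations that correlated with r = 0.066, 0.086 and 0.099, so the numbers were not taken to pair the samples, although each sample correlated best with its own number. With the replicate number as a block, 3591 genes were higher and 3842 lower, and the calls of the reference genes stayed at 1 higher and 4 lower. The depth of an array is not a count of molecules, and signals near saturation or background limit what the brightest and dimmest probe sets can show.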

Other observations

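Genes with a mean log2 signal above 10 and the smallest SD over the 6 arrays were listed after their values had been seen. Of 3610 such genes, the steadiest were NOLC1, a nucleolar protein, with an SD of 0.006, RPL11, a protein of the large ribosomal subunit, with 0.006, ZNF706 with 0.007, RPN2, a subunit of the oligosaccharyltransferase, with 0.007, RPL30 with 0.008 and BCAP31, a protein of the endoplasmic reticulum, with 0.008. Other probe sets of NOLC1 differed by up to 0.33 and of ZNF706 by down to -0.41, whereas those of RPL11 and RPL30 lay between -0.03 and 0.03. In the same order RPLP0 was at place 22, ACTB at 280, PPIA at 574, TFRC at 1340, GAPDH at 2503, GUSB at 3122 and YWHAZ at 3127, and TBP was too dim to be listed.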
